A study of Mus musculus with 2 samples.

Results

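The regions described here are the megabases of the mouse autosomes in which peaks of Tdg were most crowded. The autosomes were divided into bins of 1 Mb, each peak was assigned to a bin by its midpoint, and a bin was called crowded when it held 100 or more midpoints. Chromosomes 1 to 19 had 2421 bins from their first to their last peak, and 152 met this limit, which is 6.28% of the bins. They held 19832 of the 72227 autosomal peaks. The bins were chosen by their number of peaks, so their number, their places and the absolute spacing of their peaks are given as a description with no test. Peak width and peak score did not enter the choice. Spacing relative to the mean of a bin did not enter it either, but it depends in part on the number of peaks.

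Tdg was measured by ChIP-seq in Bio-Tdg cells, which are E14 mouse embryonic stem cells with biotin-tagged Tdg (1 library). The study also made a library from E14 cells labelled BirA cells (mock), for which no file was analysed here. E14 is an established line of mouse embryonic stem cells, and BirA is the bacterial ligase that biotinylates the tag, so that tagged protein can be pulled down on streptavidin. With 1 library there is no replicate error and no measured background. Peaks within 1 library do not replicate each other, and no test between groups of bins was made.

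Thymine DNA glycosylase (Tdg) removes formylcytosine and carboxylcytosine, which Tet enzymes make from methylcytosine, and base excision repair then puts back unmodified cytosine. In mouse embryonic stem cells these oxidised bases are known from promoters and enhancers, and Tdg is known to bind CpG-rich promoters. Mammalian chromosomes alternate between gene-rich and gene-poor stretches of megabase size. Mouse autosomes have their centromere at the low-coordinate end. All positions are in the build mm9, and no gene annotation or sequence of that build was used, so the genes in the crowded bins are not named and no sequence is shown.

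Crowded bins held a median of 122.5 peaks, with quartiles of 108 and 143.25 and a maximum of 238. The median over all autosomal bins was 16. In the crowded bins 81 held at least 120 peaks, 34 at least 150 and 7 at least 200. The crowded bins made up 6.28% of the autosomal bins and held 27.5% of the autosomal peaks, 29.4% of the bases covered by autosomal peaks and 28.5% of the reads recovered from autosomal peaks. The share of reads leaves out peaks with a score of at least 3000, of which 39.5% lay in crowded bins. The crowded bins were set against the 1315 bins of 5 to 50 peaks, which made up 54.3% of the bins and held 27482 peaks, or 38.05% of the total. The remaining autosomal bins were 340 with 51 to 99 peaks, 428 with 1 to 4 and 186 with none. The number of crowded bins depended on how peaks were counted, with 54 bins after peaks less than 1 kb apart were merged and 22 when peaks had to score 500 or more.

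Crowded bins were found on 18 of the 19 autosomes. Chromosome 11 had 22, chromosome 4 had 17, chromosome 7 had 14, chromosome 2 had 13 and chromosome 17 had 12. Chromosomes 5 and 8 had 11 each and chromosome 15 had 10, so that 8 chromosomes carried 110 of the 152 bins. Chromosome 13 had none, and its fullest bin, 55000001 to 56000000, held 97 peaks. Chromosomes 14 and 16 had 1 each, and chromosome 6 had 2.

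On the 18 chromosomes with a crowded bin, the share of bins that were crowded ran from 18.5% on chromosome 11, 15.3% on chromosome 19 and 12.9% on chromosome 17 to 0.833% on chromosome 14. On chromosome 11 the crowded bins held 3212 of 6626 peaks, or 48.5%. The corresponding shares were 46.1% on chromosome 17, 45.8% on chromosome 19, 40.9% on chromosome 4 and 39.9% on chromosome 15. On larger chromosomes the share differed widely, with 28.5% on chromosome 2, 27.2% on chromosome 5, 16.4% on chromosome 1, 16.2% on chromosome 3 and 6.12% on chromosome 6.

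**Figure D1:**
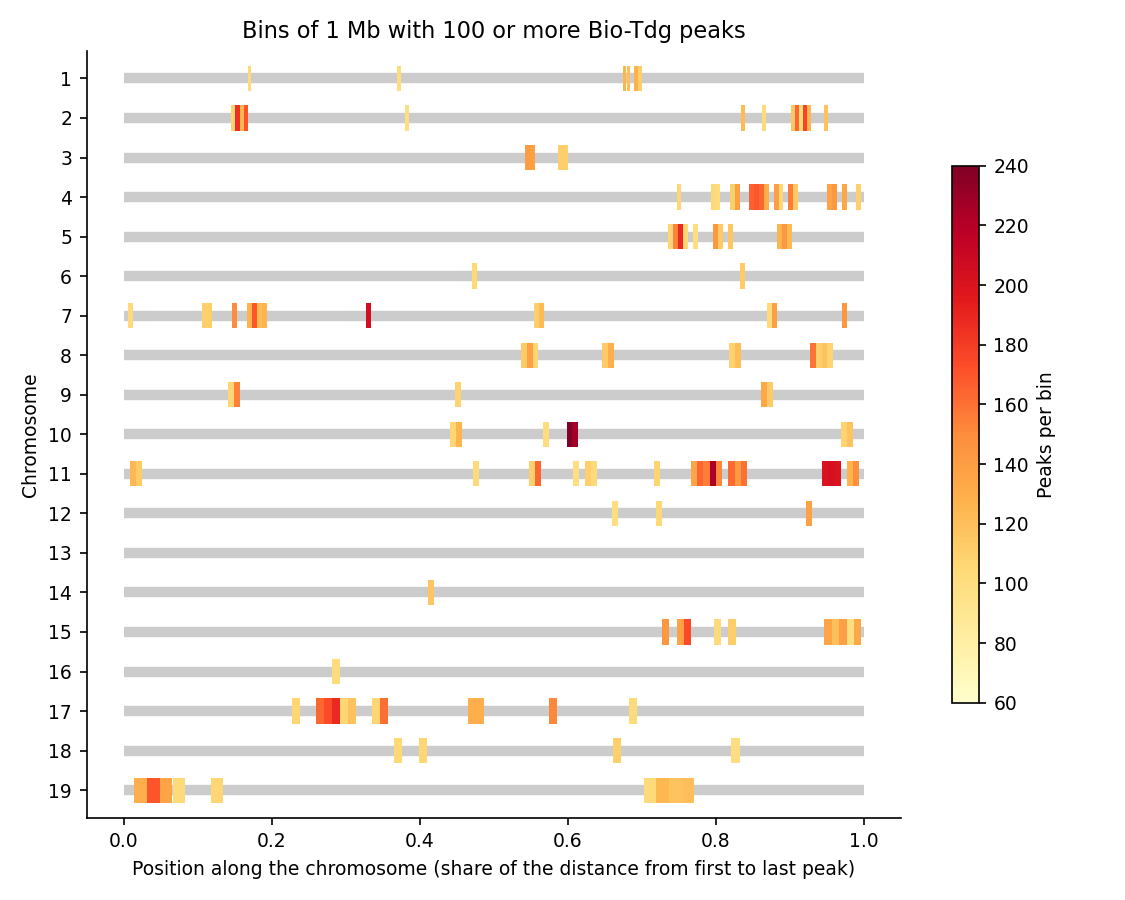
Each grey bar is an autosome, scaled from its first to its last peak (x axis, share of that distance), and each coloured block is a 1 Mb bin with 100 or more peaks, coloured by its number of peaks. The 22 bins of chromosome 11 reach close to both ends and lie mostly beyond the middle, those of chromosomes 4, 5, 8 and 15 lie beyond the middle, and chromosome 13 has no block.

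Along the chromosomes, 108 of the 152 crowded bins (71.1%) lay beyond the middle of the distance from first to last peak, away from the centromere, against 48.5% of the bins of 5 to 50 peaks and 50.2% of all autosomal bins. The last of 4 equal parts of the chromosomes held 73 crowded bins, and the other 3 parts held 23, 21 and 35 in their order from the centromere. The bins beyond the middle outnumbered those before it on 10 chromosomes, and the reverse held on 6, with 2 ties. On chromosomes 3, 4, 5, 8, 12 and 15 all crowded bins lay beyond the middle. Chromosome 17 went the other way, with 10 of its 12 crowded bins before the middle, and chromosome 7 had 9 of 14 there.

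Some crowded bins lay near the ends of chromosomes. Within 5 Mb of the last peak of a chromosome there were 13 crowded bins, or 8.55%, against 4.34% of all autosomal bins. Within 5 Mb of the first peak there were 7, or 4.61%, against 3.97% of all autosomal bins. The crowded bins closest to a last peak had their centres 0.868 Mb from it on chromosome 15, 1.11 Mb from it on chromosome 4 and 1.27 Mb from it on chromosome 11. In peaks, the crowded bins shared 1755 with the last 5 Mb of the autosomes, which was 8.85% of the peaks in crowded bins and 39.9% of the peaks in those last 5 Mb. Over all autosomal peaks, 6.08% lay in the last 5 Mb and 27.5% in crowded bins. With the first 5 Mb they shared 879 peaks, or 4.43% of the peaks in crowded bins and 34.7% of the peaks in those first 5 Mb, which held 3.50% of all autosomal peaks.

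Most crowded bins touched another one. They formed 80 runs, of which 38 were single bins and 42 were runs of 2 or more adjacent bins. These 42 runs contained 114 of the 152 bins and 15464 of the 19832 peaks. Runs of 2 bins numbered 27, runs of 3 bins numbered 4, runs of 4 bins numbered 7 and runs of 5 bins numbered 4. Another 11 pairs of runs were parted by 1 bin below the limit, and these bins held 26 to 99 peaks with a median of 90. Joined across such bins, the 80 runs would number 69.

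The 4 runs of 5 bins lay on chromosomes 2, 11, 15 and 17. On chromosome 11 the run from 94000001 to 99000000 held 830 peaks, or 166 per Mb, with 20 peaks in the bin before it and 26 in the bin after it. The run on chromosome 17, from 27000001 to 32000000, held 750 peaks, and the bins beside it held 87 and 76. Chromosome 2 had 686 peaks between 164000001 and 169000000, and chromosome 15 had 627 between 98000001 and 103000000. The bin of 26 peaks after the chromosome 11 run parted it from a further run of 3 crowded bins, so that 8 of the 9 bins from 94000001 to 103000000 were crowded.

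The 7 runs of 4 bins held 465 to 630 peaks. The fullest was chromosome 4, 132000001 to 136000000, with 630 peaks, followed by chromosome 2, 29000001 to 33000000, with 589. Chromosome 5 had 551 peaks between 113000001 and 117000000, chromosome 7 had 545 between 28000001 and 32000000, and chromosome 19 had 539 between 4000001 and 8000000. On chromosome 8 the run from 122000001 to 126000000 held 497 peaks, and a second run on chromosome 19, from 44000001 to 48000000, held 465.

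Of the 4 runs of 3 bins, 2 lay on chromosome 11. The run from 115000001 to 118000000 had 605 peaks, or 202 per Mb, and the one from 100000001 to 103000000 had 464. The others were chromosome 5, 135000001 to 138000000, with 392 peaks, and chromosome 8, 72000001 to 75000000, with 358.

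Runs of 2 bins held 206 to 465 peaks. The densest of all runs was the pair on chromosome 10 from 79000001 to 81000000, with 465 peaks or 232.5 per Mb, where peaks covered 31.9% of the sequence. On the same chromosome the pairs at 59000001 to 61000000 and 126000001 to 128000000 held 232 and 226 peaks. Chromosome 4 had 5 pairs, at 124000001 to 126000000 with 206 peaks, 128000001 to 130000000 with 250, 137000001 to 139000000 with 246, 140000001 to 142000000 with 269 and 148000001 to 150000000 with 280. Chromosome 11 had 4, at 4000001 to 6000000 with 237 peaks, 68000001 to 70000000 with 275, 77000001 to 79000000 with 214 and 119000001 to 121000000 with 276. Chromosome 7 had 3, at 19000001 to 21000000 with 223, 86000001 to 88000000 with 234 and 133000001 to 135000000 with 243. Chromosomes 4, 7 and 11 thus carried 12 of the 27 pairs.

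Pairs on other chromosomes were fewer. Chromosome 1 had pairs at 134000001 to 136000000 and 137000001 to 139000000, with 246 and 240 peaks. Chromosome 3 had pairs at 88000001 to 90000000 and 95000001 to 97000000, with 279 and 222, which are all its crowded bins. Chromosome 8 had 242 peaks at 86000001 to 88000000 and 230 at 108000001 to 110000000, and chromosome 9 had 260 at 20000001 to 22000000 and 247 at 107000001 to 109000000. On chromosome 17 the pairs at 34000001 to 36000000 and 46000001 to 48000000 held 267 and 258 peaks. The remaining pairs were chromosome 5, 122000001 to 124000000, with 258, and chromosome 15, 78000001 to 80000000, with 311. On chromosomes 6, 12, 14, 16 and 18 the crowded bins were single.

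The crowded bins usually rose out of bins that were themselves well filled. Of the 160 bins beside the edges of runs, counted once per edge, 94 held 51 to 99 peaks, 50 held 11 to 50 and 16 held 10 or fewer, with a median of 64. Over all autosomal bins, 340 of 2421 held 51 to 99 peaks, and the median was 16. Bins at a distance of 1 from the nearest crowded bin held a median of 58 peaks (quartiles 26 and 82). At a distance of 2 the median was 25, at 4 it was 13, and over 10 bins away it was 11 (quartiles 3 and 28), on the 18 chromosomes with crowded bins. Most of the decline therefore took place within 2 Mb. These counts follow in part from the limit of 100, since bins outside the crowded ones cannot exceed 99.

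**Figure D2:**
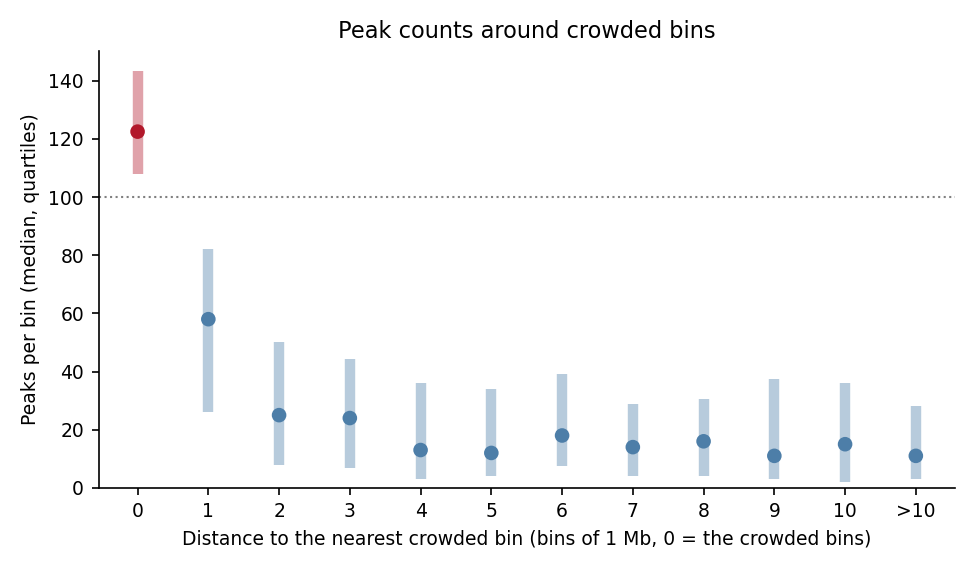
Peaks per 1 Mb bin (median as points, quartiles as bars, y axis from 0) against the distance to the nearest crowded bin on the same chromosome (x axis, in bins), with the limit of 100 peaks as a dotted line. The median is 122.5 in the crowded bins (red), 58 at a distance of 1 bin, 25 at a distance of 2 bins and 11 beyond 10 bins (blue).

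Contiguous stretches in which each bin held more than 50 peaks showed the same structure at a lower limit. Of 222 such stretches, 64 contained a crowded bin. The longest were 14 Mb each, on chromosome 4 from 128000001 to 142000000 with 1754 peaks and 10 crowded bins, and on chromosome 17 from 23000001 to 37000000 with 1549 peaks and 8 crowded bins. Chromosome 15 had a stretch of 11 Mb from 75000001 to 86000000 with 1207 peaks and 5 crowded bins. At the other end, 8 crowded bins had no bin of more than 50 peaks on either side, among them chromosome 17, 56000001 to 57000000, with 152 peaks between neighbours of 3 and 48.

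Sharp borders on both sides were rare. The pair on chromosome 7 from 19000001 to 21000000 was the single run with 10 or fewer peaks in both neighbouring bins, and both of these were empty. Its 223 peaks lay in the 1.25 Mb between 19331388 and 20577281, and of the 20 windows of 100 kb in these 2 bins 7 held no midpoint. Farther along the same chromosome the run from 28000001 to 32000000 ended beside an empty bin, with 24 peaks in the bin before it. Whether reads could be aligned within these empty bins was not tested.

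The limit of 100 cut through a continuous range. Just inside it, 21 bins had 100 or a few more peaks (under 105), 6 of them exactly 100, with bin medians of width from 744 to 1066 bp around a median of 847 bp. Just outside, 24 bins had 95 to 99 peaks, 6 of them 99, with bin medians from 732 to 1058 bp around 873 bp. The median of the bin medians of score was 541 inside and 588 outside. Relative spacing, the median distance over the mean distance of a bin, had a median of 0.533 inside and 0.516 outside. Across the limit, width and score thus ran opposite to the whole comparison given below, and relative spacing ran the same way.

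Peaks in crowded bins were somewhat wider than those in bins of 5 to 50 peaks. Their median width was 901 bp (order-statistic 95% interval 894 to 910, 19832 peaks), with quartiles of 631 and 1412 bp. In the bins of 5 to 50 peaks it was 819 bp (813 to 824, 27482 peaks), with quartiles of 604 and 1242 bp, a ratio of 1.10. These intervals treat peaks as independent and cover counting error only, so they are too narrow. The difference was small against the spread of single peaks, since the middle 50% of widths overlapped almost entirely.

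The difference grew towards the wide end. At the 10th percentile the widths were 550 bp in crowded bins and 548 bp in bins of 5 to 50 peaks. At the 90th they were 2105 and 1825 bp, a ratio of 1.15, and at the 99th 3978 and 3101 bp, a ratio of 1.28. Peaks wider than 3 kb made up 3.02% of the peaks in crowded bins (599 of 19832, exact Clopper-Pearson 95% interval 2.79 to 3.27%) and 1.17% in bins of 5 to 50 peaks (321 of 27482, 1.04 to 1.30%), against 1.92% of all autosomal peaks. The intervals of these shares also treat peaks as independent and are too narrow. Of the 1390 autosomal peaks wider than 3 kb, 43.1% lay in crowded bins. The widest there was chromosome 4, 132593970 to 132604635, at 10666 bp, followed by chromosome 2, 165704106 to 165713580, at 9475 bp and chromosome 8, 123056330 to 123064793, at 8464 bp.

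Bin by bin the same shift appeared with wide overlap. The median width per bin ran from 744 to 1118 bp over the 152 crowded bins, with a median of 903 bp and quartiles of 847 and 956 bp. Over the 1315 bins of 5 to 50 peaks it ran from 538 to 1835 bp, with a median of 816.5 bp and quartiles of 737 and 913 bp. In 137 of the 152 crowded bins the median width was above 816.5 bp, and in 72 it was above 913 bp. No crowded bin lay below the lower quartile of the bins of 5 to 50 peaks, and none above their maximum. The narrower range of the crowded bins goes with their larger number of peaks, which steadies a median.

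The score, the value the authors deposited for each peak, moved with width. Its median was 613 in crowded bins (602.9 to 623) and 517 in bins of 5 to 50 peaks (509 to 524), a ratio of 1.19. Over bins the median score was 612 (quartiles 547 and 683) in the crowded bins and 518 (435 and 632) in the bins of 5 to 50 peaks, and 131 of the 152 crowded bins lay above that 518. Scores of at least 3000, close to where the score no longer ranks peaks, were found for 4.45% of the peaks in crowded bins (883 of 19832, 4.17 to 4.75%) and 2.06% in bins of 5 to 50 peaks (566 of 27482, 1.89 to 2.23%), against 3.1% of all autosomal peaks. The crowded bins thus held 39.5% of the 2237 autosomal peaks with such scores. The intervals given for scores are too narrow in the same way as those for widths.

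Width and score are not separate measures. Across the 152 crowded bins, Spearman's rho between the median width and the median score was 0.955, a description over bins of 1 library. Below a score of 3000 the score is a function of width and of a number of reads that can be read back from it. These reads had a median of 45 per peak in crowded bins and 39 in bins of 5 to 50 peaks. Their density per kb of peak differed less, with medians of 50.5 and 48.99 reads per kb, a ratio of 1.03. Among peaks with recovered reads, those of crowded bins were therefore only slightly denser in reads. Peaks with a score of at least 3000 are left out, 4.45% in crowded bins and 2.06% in bins of 5 to 50 peaks.

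**Figure D3:**
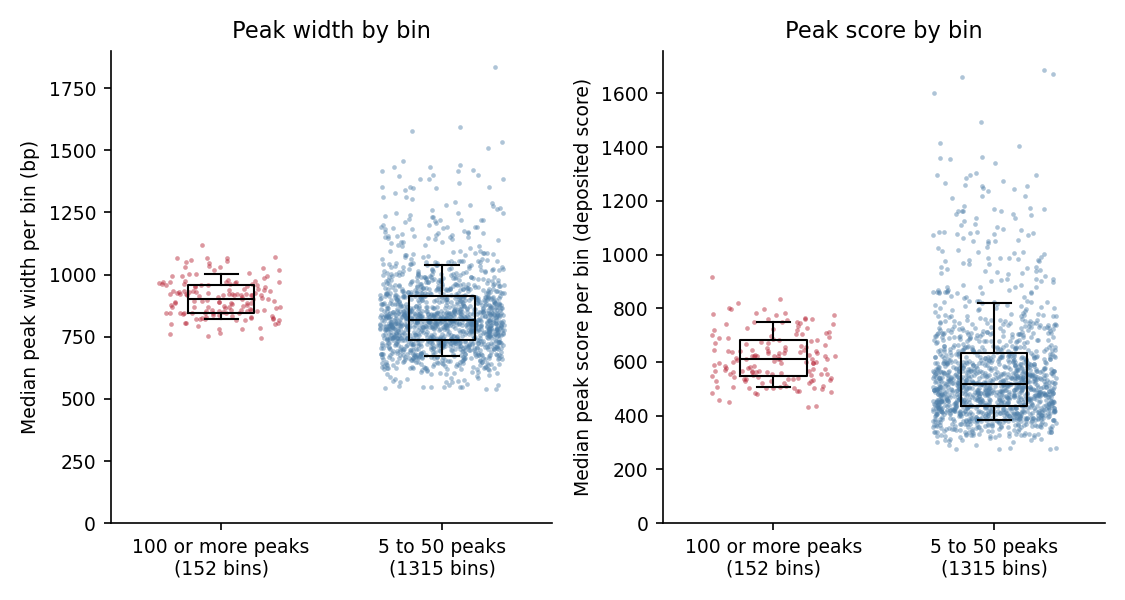
Median peak width (left, bp) and median deposited score (right) of each bin, with 1 point per bin, for the 152 crowded bins (red, left in each panel) and the 1315 bins of 5 to 50 peaks (blue), and boxes at the quartiles with whiskers at the 10th and 90th percentiles. The crowded bins centre on 903 bp and a score of 612, against 816.5 bp and 518, and lie within the range of the others.

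The shift in width was seen within chromosomes as well. On each of the 18 chromosomes with crowded bins, the median width was higher in crowded bins than in the same chromosome's bins of 5 to 50 peaks. The ratio ran from 1.03 on chromosome 2 to 1.17 on chromosome 10, with a median of 1.11. The score was higher on all 18 too, with ratios from 1.05 on chromosome 2 to 1.35 on chromosome 3. On chromosome 10 the median widths were 940 and 803 bp, and on chromosome 11, which has the most crowded bins, they were 895.5 and 850 bp. Reads per kb were higher in crowded bins on 17 of the 18, with chromosome 1 as the exception at 48.7 in crowded bins and 48.8 in the others.

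Width also rose with the number of peaks among the crowded bins themselves. The median width of peaks was 872 bp in the 43 bins of fewer than 110 peaks, 893.5 bp in the 50 bins from 110 to below 130, 915 bp in the 33 bins from 130 to below 160 and 929 bp in the 26 bins of 160 or more. Peaks wider than 3 kb made up 2.25, 2.80, 3.03 and 4.01% of these classes. Among sparser bins there was little such order, with 803.5 bp at 5 to 9 peaks, 819 bp at 10 to 19, 811 bp at 20 to 34 and 827 bp at 35 to 50, followed by 856 bp at 51 to 99. Across bins, Spearman's rho between number of peaks and median width was 0.293 over the 152 crowded bins and -0.0146 over the 1315 others, again as descriptions. The class of 51 to 99 peaks stood between the compared groups in each of these values.

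Crowded bins differed among themselves less than peaks within a bin did. Differences between crowded bins accounted for 1.94% of the variance of log2 width over their peaks, against 5.18% for the bins of 5 to 50 peaks, where fewer peaks per bin make bin means less steady. The SD of log2 width within bins was 0.740 in crowded bins and 0.657 in the others. The widest median, 1118 bp, belonged to chromosome 12, 88000001 to 89000000, and the narrowest, 744 bp, to chromosome 5, 116000001 to 117000000. The bin on chromosome 5 also had the lowest median score, 432, and the lowest share of covered sequence, 9.41%. The highest median score, 917, was in chromosome 7, 19000001 to 20000000, in the pair with empty neighbours described above.

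Peaks covered a median of 13.9% of the sequence of a crowded bin, from 9.41 to 32.1%. In bins of 5 to 50 peaks they covered a median of 1.79%, from 0.293 to 6.64%. The groups did not overlap in this value, which follows closely the number of peaks that chose the bins. The 2 fullest bins, on chromosome 10, had 32.1 and 31.7% covered. The bin on chromosome 11 from 97000001 to 98000000 had 28.4% and chromosome 7, 52000001 to 53000000, had 25.3%.

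The 10 bins with the most peaks held 186 to 238 each, and their median widths spread from 831 to 1055 bp. The values were 1051.5 and 1055 bp in the pair on chromosome 10, which are the largest of the 10. Chromosome 11 supplied 4 of them, with 974 bp in the bin from 97000001 and 917, 899 and 831 bp in the 3 bins from 115000001 to 118000000. The remaining 4 were chromosome 7 from 52000001 with 963.5 bp, chromosome 5 from 115000001 with 943 bp, chromosome 2 from 30000001 with 928.5 bp and chromosome 17 from 29000001 with 912 bp. All 10 lay above the 819 bp of the peaks in bins of 5 to 50 peaks, the bin of 831 bp by the least.

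Spacing followed from the choice of the bins in its absolute values. Neighbouring midpoints within a crowded bin were a median of 4180 bp apart (19680 distances, quartiles 2168 and 8472 bp), against 13790 bp in bins of 5 to 50 peaks (26167 distances, quartiles 4081 and 39746 bp), a ratio of 0.303. From the end of a peak to the start of the next the medians were 2948 and 12781 bp. Distances under 5 kb made up 57.2% in crowded bins and 28.8% in the others, against 41.5% over all autosomal bins, and distances under 2 kb made up 22.3 and 13.1%, against 17.3%. Distances over 50 kb made up 0.955% in crowded bins and 20.3% in the others. The bin with the closest peaks was chromosome 11, 97000001 to 98000000, with a median distance of 3058.5 bp.

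At a scale of 100 kb, peak midpoints were found along most of the length of a crowded bin. Of the 1520 windows of 100 kb in crowded bins 30 were empty (1.97%), and 130 of the 152 bins had no empty window. The median window held 13 peaks, with quartiles of 8 and 18 and a maximum of 36, in chromosome 10, 80800001 to 80900000. In bins of 5 to 50 peaks 37.1% of the windows were empty and the median window held 1 peak, values that follow from the number of peaks that chose the bins. The 2 fullest windows of a crowded bin held a median of 33.1% of its peaks, from 23.5 to 56.2%, and the corresponding median was 56.25% in bins of 5 to 50 peaks, which is likewise tied to their small number of peaks.

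Spacing relative to the mean distance of a bin was higher in crowded bins than in the bins of 5 to 50 peaks as a whole, but not in each class of them. The median distance over the mean distance of the bin was a median of 0.588 over the 152 crowded bins, with quartiles of 0.527 and 0.637, and 0.485 over the bins of 5 to 50 peaks, with quartiles of 0.327 and 0.655. Among the sparser bins it was 0.640 at 5 to 9 peaks, 0.444 at 10 to 19, 0.456 at 20 to 34 and 0.489 at 35 to 50. Among the crowded bins it was 0.549 below 110 peaks, 0.564 from 110, 0.589 from 130 and 0.663 from 160. The first 3 of these classes lay below the bins of 5 to 9 peaks. Few distances per bin pull a median towards the mean, which raises the value at 5 to 9 peaks by construction. Very short distances on this scale, under 0.25 of the bin's mean, made up 18.97% of the distances in crowded bins and 36.1% in the others. A peak has a width of its own, which sets a floor on the distance and weighs more when the mean distance is short. The ratio between the groups, 1.21, depended on which peaks were counted: for peaks scoring 500 or more, with the limits scaled to their number, it was 0.925, and 1.01 when bins under 5 such peaks were left out.

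The crowded bin with the highest relative spacing was also the fullest, chromosome 10, 79000001 to 80000000, at 0.826 and with a longest distance of 15909 bp. The lowest value was 0.373, in chromosome 15, 101000001 to 102000000, where 100 peaks left one distance of 172504 bp. The longest distance within any crowded bin was 312756 bp, in chromosome 6, 125000001 to 126000000. Across the 152 crowded bins relative spacing rose with the number of peaks (Spearman's rho 0.486), and across the 1315 bins of 5 to 50 peaks rho was -0.162, both as descriptions. Relative spacing was higher in crowded bins than in bins of 5 to 50 peaks on 15 of the 18 chromosomes, the exceptions being chromosomes 3, 6 and 9.

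**Figure D4:**
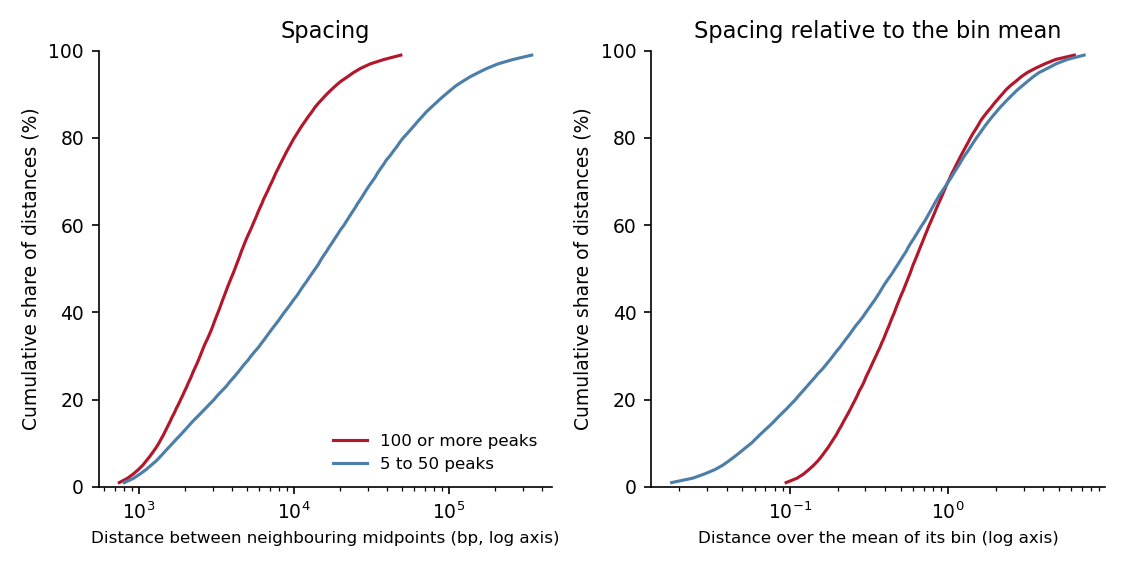
Cumulative share of the distances between neighbouring midpoints within a bin (y axis, %) against the distance in bp (left, log axis) and against the distance divided by the mean distance of its bin (right, log axis), in crowded bins (red) and bins of 5 to 50 peaks (blue). In bp the crowded bins lie to the left, with medians of 4180 and 13790 bp, and on the relative scale the curve of the crowded bins is steeper and starts at larger values.

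Peaks in crowded bins often lay in short chains. Of the peaks in crowded bins, 44.5% stood less than 1 kb, edge to edge, from another in a chain of 2 or more, against 24.2% in bins of 5 to 50 peaks. Edge distances under 1 kb made up 26.5% in crowded bins and 14.0% in bins of 5 to 50 peaks, against 19.5% over all autosomal bins. These values follow in part from the number of peaks that chose the bins. The chain with the most peaks was on chromosome 11, 97517325 to 97536611, with 10 peaks over 19287 bp. Chains of 8 peaks lay on chromosome 3, 88079929 to 88087352, and chromosome 5, 114033153 to 114043208. Isolated peaks were nearly missing, and the number of peaks that chose the bins leaves little room for them. Of the 19832 peaks, 21 (0.106%) had no other midpoint within 50 kb, against 4.65% of all autosomal peaks. These 21 were 0.626% of the 3356 autosomal peaks of this kind.

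The difference in width was also taken by distance to the nearest other peak, on either side and in any bin. The classes use distances between midpoints, and separate peaks with close midpoints cannot be wide, so widths in the closest class are held low in both groups by its definition. Among peaks with a neighbour within 1.5 kb, the median widths were 757 bp in crowded bins and 739.5 bp in bins of 5 to 50 peaks, a ratio of 1.02. At 1.5 to 3 kb they were 997.5 and 888 bp, a ratio of 1.12, and at 3 to 5 kb 984 and 844.5 bp, a ratio of 1.17. At 5 to 10 kb the ratio was 1.11, and at 10 to 20 kb it was 1.07. Among peaks with no neighbour within 20 kb the widths were 804 bp (289 peaks) and 807 bp (6600 peaks), a ratio of 0.996. Scores behaved alike, with ratios of 1.06, 1.20, 1.30, 1.21, 1.15 and 0.990 from the closest to the farthest class.

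Both groups had their widest peaks at 1.5 to 3 kb from a neighbour. That class held 34.1% of the peaks in crowded bins and 17.6% of those in bins of 5 to 50 peaks, and the class without a neighbour within 20 kb held 1.46 and 24.0%.

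**Figure D5:**
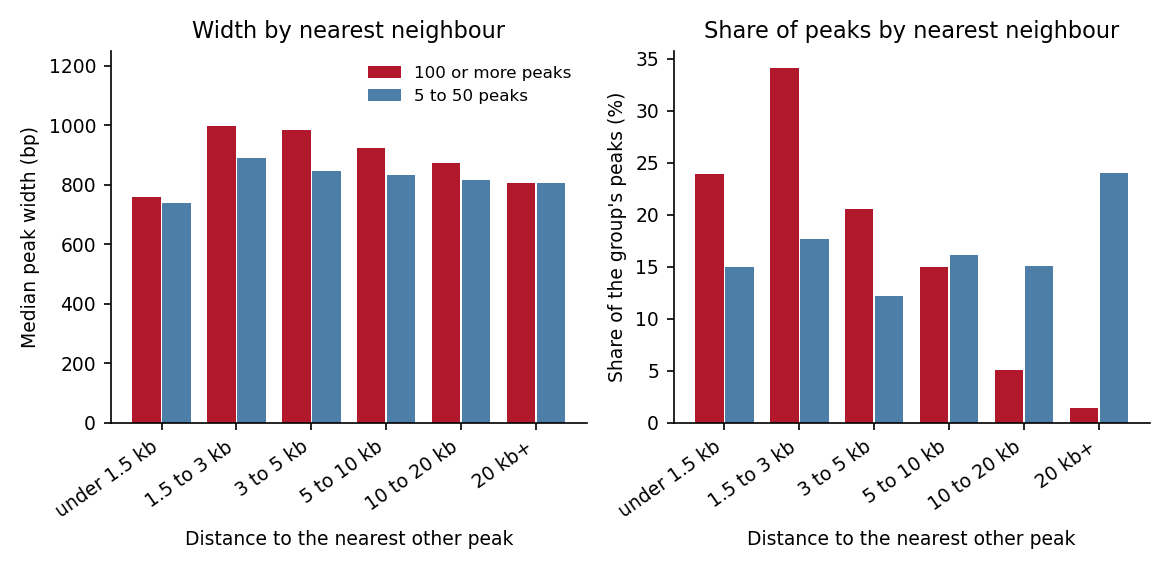
Median peak width (left, bp, bars from 0) and share of the group's peaks (right, %) by distance to the nearest other peak, for crowded bins (red, left bar of each pair) and bins of 5 to 50 peaks (blue). Widths differ most at 3 to 5 kb (984 and 844.5 bp) and are close at under 1.5 kb (757 and 739.5 bp) and at 20 kb or more (804 and 807 bp).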

How the data were processed

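The values came from the deposited list of called peaks of the Bio-Tdg library, with start, end, name and score for each of 72970 peaks. Per the submitters' processing notes, the build was mm9 and the tools named are MACS 1.4.1, Bowtie 0.12.7 and CASAVA 1.8. What served as control, how reads were filtered and where the calling threshold lay is not given in the sources used here. The score is the authors' deposited value per peak and ran from 258 to 3233. In MACS output of this form it is −10 times the log10 of a p-value, and it was used to describe and filter peaks and to read back reads. The labels' protocol also mentions a bisulfite kit, without saying for which libraries.

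Positions are printed counting from 1, width is end minus start, and a peak belongs to the 1 Mb bin of its midpoint. Distances were taken between neighbouring midpoints of the same bin, and nearest neighbours over the whole chromosome. Reads were read back from score and width under 1 fitted rate, 1.13 reads per kb, with a width of at least 370 bp. All 70722 scores below 3000 lay within 0.01 score units of the value that a whole number of reads gives at that rate. As 1 rate gave all of them, these scores hold no correction for background that varies along the genome. The 2237 autosomal peaks at higher scores have no recovered reads. The depth of the library is not known, and reads that carry no molecular identifier need not be independent molecules. Counting of bins, runs, widths and reads was tested on simulated data. With 1 library no test was made. Intervals of shares are exact Clopper-Pearson intervals and those of medians come from order statistics. Both kinds treat peaks as independent and are too narrow.

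The regions, the groups compared and the descriptions were chosen with earlier results of these data known. Named regions were all runs of 2 or more crowded bins, the 10 fullest bins, the bins beside the limit, given as a summary, and the bins with extreme width, score or relative spacing. Other bins, chains and peaks were named after their values were seen. Classes of peak number, of nearest-neighbour distance and windows of 100 kb were chosen likewise. Gene and CpG content was not run, as no mm9 genome or annotation was used. The tools were matplotlib 3.10.9, pandas 2.3.3, scipy 1.17.1 and numpy 2.4.6 in Python 3.11.15.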

Additional observations from a re-analysis of the deposited data

How the results depend on the processing

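Width and score stayed higher in crowded bins in each of the 12 settings run, and the count of crowded bins followed the limit. Median spacing was closer in each setting too, which follows from choosing the bins by their number of peaks. The settings with comparison bins of 30 to 50 peaks, without the 10 fullest bins, and with scaled limits and at least 5 peaks were added after seeing the data. Ratios are crowded bins over comparison bins. With a limit of 80 peaks there were 249 crowded bins, with ratios of 1.09 for width, 1.16 for score, 0.323 for median spacing and 1.15 for relative spacing. A limit of 120 gave 81 bins, 19 runs of 2 or more, and ratios of 1.12, 1.22, 0.283 and 1.25. Keeping only peaks with a score of at least 500 left 22 bins, 3 runs, and ratios of 1.08 for width, 1.12 for score and 1.16 for relative spacing. With limits scaled to the 54.5% of peaks kept (54 or more, against 3 to 27), there were 167 crowded bins and 51 runs of 2 or more. The ratios were then 1.06, 1.08 and 0.233, and relative spacing reversed to 0.925. A bin of 3 peaks has 2 distances, whose median equals their mean, which raises the comparison value by construction. With at least 5 peaks per comparison bin they were 1.06, 1.08, 0.243 and 1.01. Merging peaks less than 1 kb apart left 54 bins and 12 runs, with ratios of 1.35, 1.33, 0.372 and 1.32. A merged peak spans all its parts and keeps their highest score. Before merging, 44.5% of the peaks in crowded bins stood less than 1 kb from another, against 24.2% in bins of 5 to 50 peaks. Merging thus raises the width and score ratios by construction. Against bins of 10 to 30 peaks median spacing was 0.236 and relative spacing 1.30, and against bins of 30 to 50 peaks width was 1.09, score 1.16 and median spacing 0.414. Without the 10 fullest bins median spacing was 0.313. Shifting the bins by 0.5 Mb, leaving out the widest 1% of peaks or leaving out chromosome 11 moved no ratio beyond its interval and no count by over 1.5 times. That interval is the order-statistic interval of the crowded median divided by a fixed comparison median. It leaves out error in the comparison bins. No paired analysis was possible because the groups have 1 library apiece, with values for Bio-Tdg alone. The depth of the library and the calling threshold are not known, so a bin below the limit may hold sites that were not called.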

Other observations

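Where fixed bins split a crowded stretch, the limit of 100 misses part of it. When the 1 Mb window was placed freely on each chromosome, a step added after seeing the data, the most peaks in any window reached 100 on all 19 autosomes. Chromosome 13, which had no crowded bin, held 115 peaks in the window from 54636829 to 55636828. The gain was largest on chromosome 6, with 177 peaks from 124609028 to 125609027, against 113 in its fullest bin. Chromosome 4 reached 208 against 169, chromosome 3 reached 180 against 141, and chromosome 8 reached 197 against 159. On chromosome 10 the free window gained little, with 250 against 238. A freely placed window cannot hold fewer peaks than the best fixed bin, so the gain itself is not a finding.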
